A study of Drosophila melanogaster with 3 samples.

Results

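The 2156 regions described here are the open-chromatin peaks whose deposited fold enrichment was 3.0 or more, out of 34718 peaks called in wild-type Drosophila melanogaster, in the epidermis of the pupal abdomen. That is 6.21% of the list. Fold enrichment is a linear ratio that the authors' peak caller gives to each peak, the read pileup at the summit over a local background. The assay was ATAC-seq by an Omni-ATAC procedure with 0.1% of the detergent IGEPAL in the lysis buffer. There was 1 group, of genotype WT, with 3 replicates. For each replicate the abdominal cuticles of 50 pupae, aged 38 to 45 h after puparium formation, were dissected and freed of internal organs, which left the epidermal cells on the cuticle. No sex was given, animals were pooled within each replicate, and the 3 replicates came as 1 merged peak list. The values below therefore have no replicate error, and no test was made: the peaks were chosen by their own fold enrichment, so every difference from the remaining 32562 peaks is a description of this list.

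In ATAC-seq a transposase cuts DNA that is not wrapped in nucleosomes and leaves sequencing adapters there, so read pileups mark promoters, enhancers and other open sites. Genes for developmental transcription factors, such as the homeobox, T-box and GATA families, are known for arrays of enhancers spread over their introns and flanks. In the pupal abdomen the histoblasts replace the larval epidermis, and the Hox genes abd-A and Abd-B set the identity of its segments.

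The fold enrichments of the 2156 peaks had a median of 3.22 (interquartile range 3.10 to 3.42) and ended at 4.45, against a median of 1.97 for the other peaks. Just inside the threshold were summits at the ends of dysf (3.00014) and obe (3.00051) and inside pnt (3.00050), and just outside it lay summits at the end of chico (2.99992), between genes near Awh (2.99952) and nearest to hog inside NetB (2.99933). The threshold cuts a continuous range: 390 of the peaks reached 3.5 and 42 reached 4.0. The lowest −log10 q of a 3-fold peak was 32.6.

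Pileup and background were recovered from the deposited values, and both belong to the measure that chose the peaks. At 3-fold summits 174 to 268 reads overlapped, with a median of 202, against a median of 145 at other summits. The background had a median of 58.6 reads under 3-fold summits and 69.2 under the others. It cannot fall below 57.2 reads, and 919 of the 3-fold peaks (42.6%) sat at this floor, against 8222 other peaks (25.3%). Of all peaks at the floor 10.1% were 3-fold, and of those above it 4.84%. Both a high pileup and a low background thus set the 3-fold peaks apart. A pileup of 174 reads or more was present at 10584 peaks, and 20.4% of them were 3-fold, or 12.8% of those with a background above the floor. The highest pileup of the list, 277 reads inside the ecdysone-induced gene Eip75B, stood over 146 background reads and gave a fold enrichment of 1.89. Of the 10 highest pileups, 2 belonged to 3-fold peaks, at the ends of CG3036 (268 reads, fold enrichment 3.26) and of the Wnt ligand gene Wnt4 (262 reads, 3.68).

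**Figure D1:**
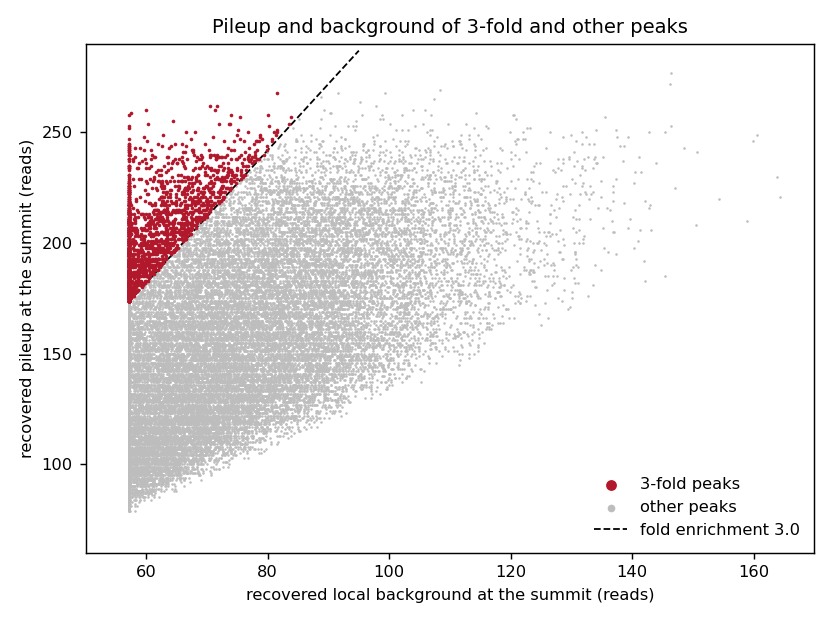
Recovered read pileup at the summit (vertical axis) against recovered local background (horizontal axis), both in reads, with 1 point per peak. The 3-fold peaks (red) lie above the dashed line of fold enrichment 3.0, many of them in the column at the 57.2-read floor, and many other peaks (grey) have equal pileups over a higher background.

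The depth sets how sharply the peaks can be ranked. A pileup of 174 reads has a 95% Poisson interval of 149 to 202 reads, and the median pileup of 202 has one of 175 to 232 reads. With the background held fixed, 467 of the 3-fold peaks (21.7%) stayed at 3.0 or more at the lower bound of their pileup, and 3754 other peaks (11.5%) reached 3.0 at the upper bound. At the floor the fold enrichment takes only 73 distinct values among these 919 peaks, so many genes below share a value. 3-fold peaks were broad, with a median width of 747 bp against 339 bp for the other peaks.

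3-fold summits lay mostly at the ends of genes. A summit counted as gene end within 500 bp of an end of any annotated gene, coding or not, as interior when it lay inside a gene beyond that distance, and as intergenic otherwise. By this division 1216 of the 3-fold summits (56.4%) were at gene ends, 672 (31.2%) in interiors and 268 (12.4%) between genes, against 29.6%, 53.2% and 17.2% of the other summits. Read the other way, 11.2% of all gene-end peaks were 3-fold, 3.74% of interior peaks and 4.56% of intergenic peaks. The background was lower at 3-fold than at other gene-end peaks, with medians of 58.6 and 66.7 reads. At equal background, among the peaks at the floor, 17.3% of gene-end peaks were 3-fold, 6.78% of interior ones and 6.31% of intergenic ones. Among the 10584 peaks with 174 reads or more the shares were 29.6%, 13.0% and 20.7%.

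The share of 3-fold peaks fell with distance from the gene end. It was 14.2% for summits within 50 bp of an end, 14.1% from 50 to 100 bp, 8.12% from 200 to 300 bp and 6.58% from 300 to 500 bp. It was lowest from 2 to 5 kb, at 3.34%, and stood at 5.14% from 20 to 50 kb, where 68 of 1324 summits were 3-fold. The median distance to a gene end was 314.5 bp for 3-fold summits and 1817 bp for the others, and 745 of the 3-fold summits (34.6%) lay within 100 bp of an end, against 4509 others (13.8%). The gene table gives spans but no strand, so a start and a 3' end of a gene could not be told apart, and exons, introns and UTRs were not separated. At gene ends, 696 of the 3-fold summits (57.2%) lay outside every annotated gene, against 3985 others (41.3%). A single protein-coding gene had an end in reach of 58.1% of the 3-fold gene-end summits and 51.3% of the others. Interior 3-fold summits lay in genes with a median span of 30215 bp, close to the 29257 bp of the other interior summits.

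**Figure D2:**
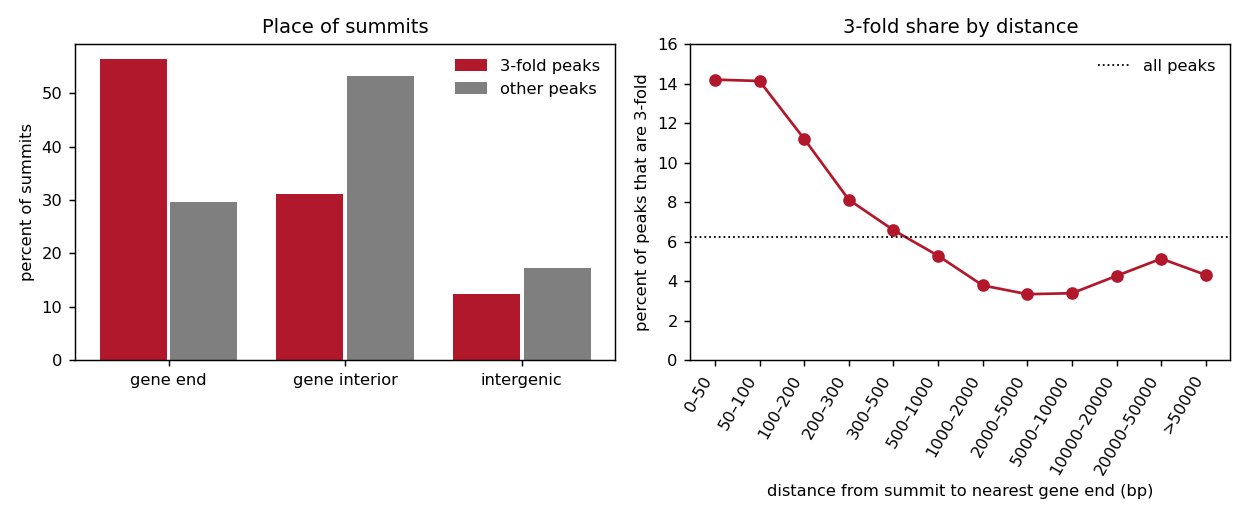
Left, percent of summits at gene ends, in gene interiors and between genes, for 3-fold peaks (red) and other peaks (grey); right, percent of peaks that are 3-fold by distance in bp from the summit to the nearest gene end, with the share over all peaks dotted. Gene ends hold 56.4% of the 3-fold summits, and the 3-fold share is 14.2% within 50 bp of an end and 3.34% at 2 to 5 kb.

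3-fold peaks stood more alone than other peaks. Within 5 kb they had a median of 2 other summits, against 4 around the other peaks, and 191 of them (8.86%) had none, against 1286 others (3.95%). The 3-fold share was 12.9% for summits with no neighbour, 14.2% with 1, 7.04% with 3, 2.17% with 5 and 0.109% with 8 or more. The median background changed with the same count, at 57.2 reads with no neighbour and 91.6 reads with 8 or more, and so did the share of peaks with 174 reads or more, at 16.6% and 45.6%. Crowded summits thus had the higher pileups and the fewer 3-fold peaks, and the part of the background in this was not tested. Another 3-fold summit lay within 5 kb of 439 of the 3-fold summits (20.4%).

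Many of the highest peaks lay near transcription factor genes. Each summit was given the protein-coding gene with the nearest end. Of the 42 peaks at 4.0 or more, 23 (54.8%) had their nearest end at a member of 14 lists of transcription factor genes, and 14 (33.3%) at a homeobox gene. Over all 3-fold peaks the numbers were 259 (12.01%) for transcription factor lists and 123 (5.71%) for homeobox genes, against 2026 (6.22%) and 734 (2.25%) of the other peaks. Within the 3-fold peaks the share of transcription factor genes was 7.88% from 3.0 to 3.2, 12.9% from 3.4 to 3.6, 22.7% from 3.6 to 3.8 and 36.9% from 3.8 to 4.0. The share at the background floor changed over the same steps, at 35.0%, 49.8%, 63.6% and 64.6%, while over all steps, 4.0 and higher included, the share at gene ends stayed between 50.0% and 59.1%.

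**Figure D3:**
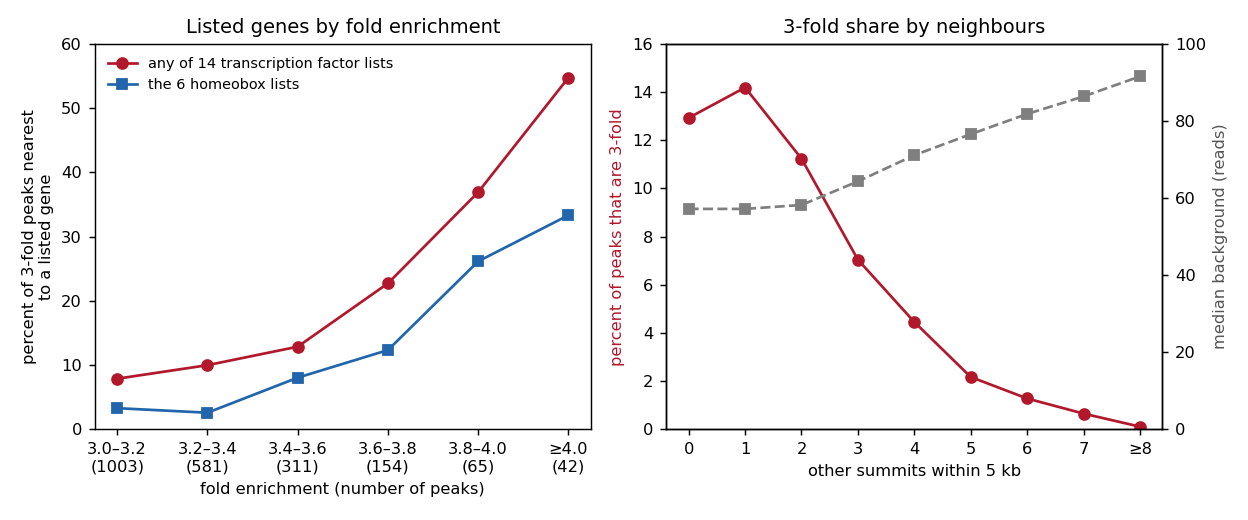
Left, percent of 3-fold peaks whose nearest protein-coding gene end belongs to any of 14 transcription factor lists (red circles) or to the 6 homeobox lists (blue squares), by fold enrichment, with the number of peaks in brackets. Right, percent of peaks that are 3-fold (red, left axis) and median background in reads (grey, right axis) by the number of other summits within 5 kb; the share is 12.9% at 0 neighbours and 0.109% at 8 or more.

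Among gene-end peaks the highest was at tup, the LIM-homeodomain gene of the Islet family, at 2L:18880714-18882037 on dm6 (fold enrichment 4.45, 259 reads, 104 bp from the gene's end). Next came Awh, a LIM-homeodomain gene needed for abdominal histoblasts, at 3L:3845486-3846662 (4.28), and the paired-class genes Gsc and otp (4.21 each). Then came the Hox gene pb at 3R:6741407-6742421 (4.19), the T-box gene byn, the Iroquois gene caup and the Argonaute gene AGO2 of the RNA interference machinery (4.18 each). C15, a homeobox gene of the leg tip, had 4.16. Another of the 10 highest gene-end peaks lay 151 bp from an end of lncRNA:CR45559 and 2942 bp from Antp (3R:6893068-6894108, 4.19). Apart from AGO2, the genes nearest to these peaks all encode developmental transcription factors.

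Interior peaks of this height lay in a more mixed set of genes. The cAMP phosphodiesterase gene dnc held the highest, at X:3255844-3256289 (4.45), 5032 bp from the nearest end, that of the salivary glue gene Sgs4. The next lay in the heparan sulfate sulfotransferase gene Hs3st-A (4.36), the wing selector gene ap (2R:5726286-5727644, 4.35), CG9932 (4.26), the kinase gene Pkcdelta (X:12446085-12447902, 4.23) and ocm (4.21). Scr, a Hox gene, had 4.16 at 1215 bp from its end, CG18507 had 4.11, chn, a zinc-finger gene of sensory organ development, had 4.09, and tio, a paralog of teashirt, had 4.07. CG9932 also had a gene-end peak of 4.04. Intergenic peaks reached 4.23 nearest to CG30371, 4.14 nearest to Sox21b, 4.11 nearest to Syx7, 4.06 nearest to the forkhead gene bin and 4.04 nearest to CG1354 and CG41242. The last of these lay 136864 bp from the end of CG41242, so the nearest gene says little there. Outside the rule and chosen after their values were seen, 2 peaks over 4.0 were at genes of chitin metabolism, at the end of the chitinase gene Cht6 (4.01) and inside Gfat1 (4.04), which encodes an enzyme of amino-sugar synthesis.

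All 8 Hox genes had a 3-fold summit nearest to them, and 7 had one within 500 bp of an end. For comparison, 12.6% of the 13922 protein-coding genes had a 3-fold summit nearest to them, 10.7% had one at an end, and 16.4% of the genes with any summit at an end had a 3-fold one there. Of the 10 gene-end summits of Hox genes 70.0% were 3-fold, and of their 150 summits farther away 24 were, against 11.8% and 4.09% of such summits over all protein-coding genes. The head and thorax genes pb (4.19), lab (3.93), Dfd (3.90) and Scr (3.85) were highest at their ends, followed by abd-A (3.72), Ubx (3.68) and Antp (3.14). Ubx and abd-A, which act in the abdomen, were thus 3-fold at their ends.

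Abd-B, which specifies the posterior abdominal segments, was the exception at its ends and led elsewhere. It had 10 3-fold summits among the 23 nearest to it, more than any other gene, and none within 500 bp of its own ends, where the highest summit had 2.22. Only 23 protein-coding genes, 0.165%, had 4 or more. The 10 ran over 49558 bp at fold enrichments of 3.11 to 3.68 with 180 to 234 reads, and 7 of them were at the background floor. The highest was at 3R:16957854-16958146 (3.68, 213 reads) and the next at 3R:16969998-16970520 (3.63, 210 reads), both inside the gene. Another lay 487 bp from an end of the non-coding gene lncRNA:iab8 (3.11), in the flank where the iab regulatory regions of Abd-B are known to lie. Abd-B also set the densest stretch of 3-fold peaks: the 100 kb that start at 3R:16899924 held 15 of them among 36 summits. The next such stretch away from it, from 3L:21476634, held 13 among 40 and included the forkhead gene croc and the nuclear receptor gene Hr78.

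Antp, the Hox gene of the thorax, had 7 3-fold summits of 44, spread over 131689 bp. Its neighbours in the complex had fewer: Scr had 3 of 17, lab 3 of 7, pb 2 of 9 and Dfd 1 of 7. In the other complex Ubx had 3 of 43 and abd-A 2 of 10.

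The paired-class homeobox and Pax genes were 3-fold almost throughout. Of 25 genes 22 had a 3-fold summit nearest to them, and of 21 with any summit at an end 19 had a 3-fold one there. Gsc and otp led at 4.21. Among the other members, the eye and head genes oc, ey and toy had 3.93, 3.88 and 3.85, and sv, a Pax gene of bristle development, had 3.85. The genes in the list without a 3-fold summit included PHDP and Pph13, with no summit at all nearest to them. Of the 29 gene-end summits of this list 69.0% were 3-fold, with 81.3% at the background floor and 53.8% above it.

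The other homeobox lists were less uniform. Of 33 other Antennapedia-class and NK-class genes 18 had a 3-fold summit nearest to them, among them C15 (4.16), B-H2 (4.14), the posterior-compartment gene en (3.60) and the appendage gene Dll (3.13). Hmx and NK7.1 had none. Of 6 LIM-homeodomain genes 5 had one, with tup and ap highest and Lim3 without. Of 7 TALE genes only caup (4.18), ara (4.11) and hth (3.70) had one, and achi and exd had 2.97 and 2.66 at their ends. Of 13 POU, sine oculis-class, cut and zinc-finger homeobox genes 8 had one, led by nub (3.94) and vvl (3.92), with Six4 and acj6 without. Over the 6 homeobox lists 64 of 92 genes had a 3-fold summit nearest to them, and 56.2% of their 89 gene-end summits were 3-fold, with a median of 213 reads over a background of 58.0. Gene-end summits of all protein-coding genes had 160 over 64.7. The homeobox ends thus had both the higher pileup and the lower background, and 50.0% of their 48 gene-end summits above the floor were 3-fold, against 9.54% of all those above the floor.

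The T-box family was as complete as the Hox genes. All 8 T-box genes had a 3-fold summit nearest to them and 7 had one at an end, with byn (4.18), Doc2 (4.07), mid (3.89), Doc1 (3.64), H15 (3.48), org-1 (3.11) and Doc3 (3.07) in that order. bi, which acts in abdominal and wing patterning, had its highest away from the ends, at 3.71. Of 10 gene-end summits 70.0% were 3-fold. GATA genes had 4 of 5, with grn (4.06), srp (3.60) and pnr (3.47), a gene of dorsal body wall patterning, and with GATAe without. Forkhead genes had 9 of 17, led by croc (4.11) and bin (4.06), with none at CHES-1-like and FoxK.

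At gene ends, zinc-finger regulators, nuclear receptors and bHLH genes had lower 3-fold shares than most homeobox lists, but above the 11.8% of all protein-coding genes. Of 42 C2H2 and BTB zinc-finger genes 28 (66.7%, a higher share than in 3 of the 6 homeobox lists) had a 3-fold summit nearest to them, and 41.9% of 43 gene-end summits were 3-fold. They were led by tio (4.07), btd (4.06) and disco (3.95), with Trl and bowl without. The abdominal pigmentation regulators bab1 and bab2 had 3-fold summits away from their ends (3.69 and 3.75). chinmo, a BTB factor of juvenile identity, had 4 3-fold summits at 3.57 to 3.90, all at the background floor. Of 21 nuclear receptor genes 9 had one, with the ecdysone receptor gene EcR (3.97) and ftz-f1 (3.63) highest and ERR and Eip78C without. EcR was 3-fold inside the gene and at 2.29 at its ends, and 29.4% of the 17 gene-end summits of nuclear receptors were 3-fold. Of 47 bHLH genes 13 had one, led by sim (3.95) and ss (3.56), with Clk and E(spl)m3-HLH without, and 26.3% of 38 gene-end summits were 3-fold.

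ETS genes had no 3-fold summit at their ends, and Sox genes had most of theirs farther away. Of 8 Sox genes 5 had a 3-fold summit nearest to them, led by Sox21b (4.14) and D (4.04), with Sox14 and Sox100B without. Of 4 Sox gene-end summits 1 was 3-fold (25%, against 11.8% over all protein-coding genes), with a median pileup of 234 reads over a background of 103, and of 57 farther away 17.5% were. Of 8 ETS genes pnt had one (12.5%, near the 12.6% of all protein-coding genes), at 3.07 and away from its ends. None of the 11 ETS gene-end summits was 3-fold, with a median of 185 reads over a background of 78.0, and Ets21C and Eip74EF reached 2.98 and 2.93 at their ends.

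Over the 14 lists together 141 of 248 genes had a 3-fold summit nearest to them, and 42.3% of 234 gene-end summits were 3-fold, against 11.8% over all protein-coding genes. At the floor the shares were 55.7% for these lists and 17.8% over all, and above the floor 35.5% and 9.54%. The higher share was present both at the floor and above it, where backgrounds varied and were not matched. Farther than 500 bp from the ends the lists had 7.80% 3-fold summits, against 4.09% over all. Even so, the genes in none of the 14 lists made up most of the peaks: 1615 of them had a 3-fold summit nearest.

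**Figure D4:**
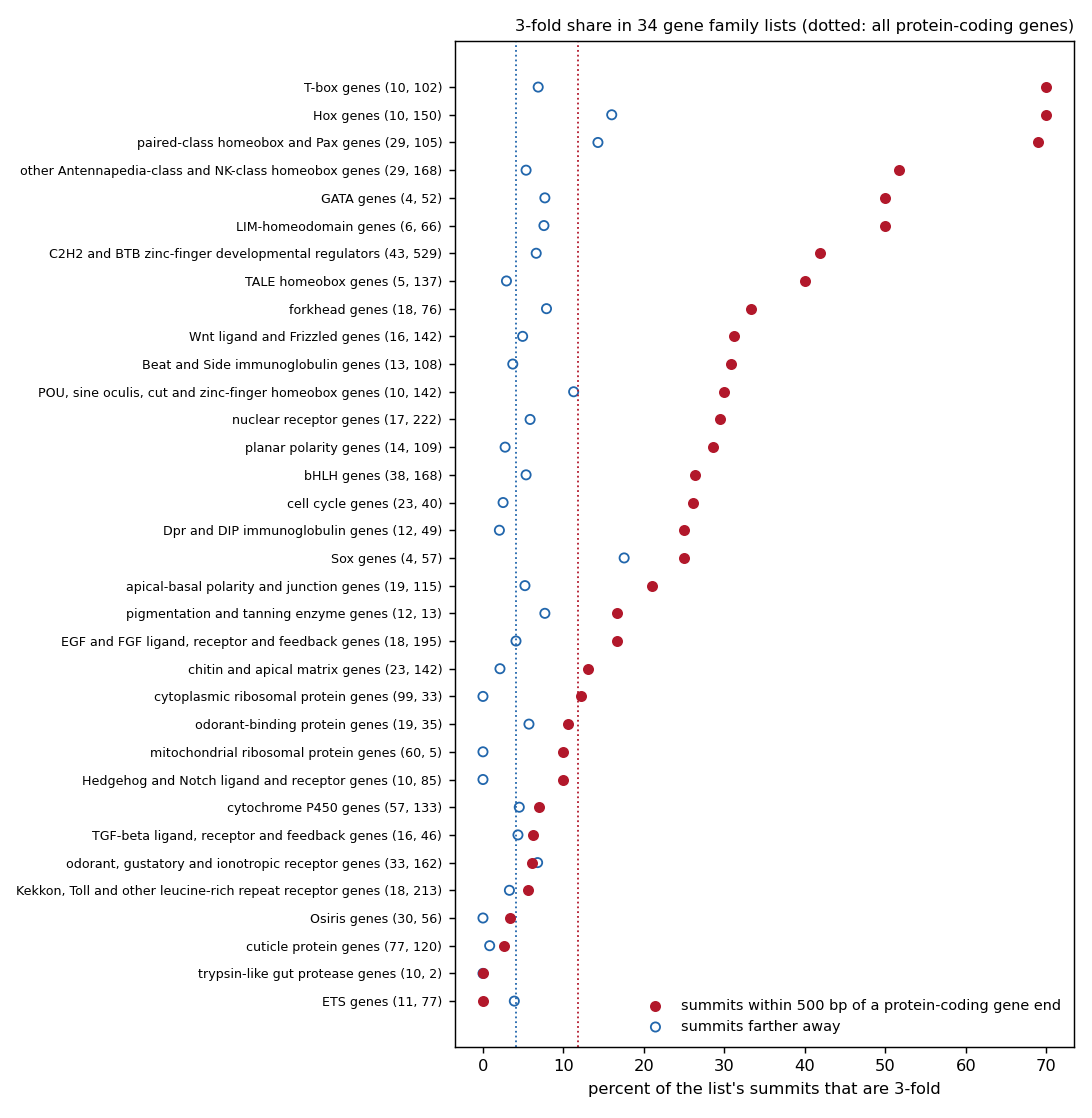
Percent of summits that are 3-fold in 34 gene family lists, for summits within 500 bp of a protein-coding gene end (filled red) and farther away (open blue), with the numbers of summits in brackets in that order; dotted lines show all protein-coding genes, 11.8% at ends and 4.09% farther away. T-box, Hox and paired-class genes are at the top with 69.0 to 70.0% at ends.

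Signalling genes were divided. Of 12 Wnt ligand and Frizzled genes 6 had a 3-fold summit nearest to them and 31.3% of 16 gene-end summits were 3-fold: the ligand gene wg had 3.97 at its end, Wnt4 had 3.68 and the receptor gene fz had 4 3-fold summits up to 3.54, while Wnt2 and Wnt5 had none. Of 16 EGF and FGF pathway genes 8 had one, with the FGF ligand genes bnl and pyr both at 3.87 and no 3-fold summit at Egfr and Krn. Of the 213 summits nearest to these genes 5.16% were 3-fold, against 6.21% of all peaks, with 16.7% of 18 at gene ends and 4.10% farther away (11.8% and 4.09% over all protein-coding genes). Of 13 TGF-beta pathway genes mav (3.73) and myo (3.23) were nearest to one (15.4%, near the 12.6% of all protein-coding genes). The receptor gene sax had a shared end peak of 3.39. Of the 62 summits nearest to this list 4.84% were 3-fold. Of 7 Hedgehog and Notch ligand and receptor genes smo had one, at 3.05 (14.3%, also near the 12.6%). Of the 95 summits nearest to this list 1.05% were 3-fold. Delta and N had 2.45 and 2.50 at their ends, although the 10 gene-end summits of the list had a median of 213.5 reads, over a background of 88.5. Ligand and receptor genes without a 3-fold peak thus included some with pileups as high as those of homeobox genes.

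At gene ends, polarity genes of the epidermal sheet lay above the 11.8% of all protein-coding genes and structural cuticle genes below it. The 3-fold shares there were 28.6% of 14 summits for planar polarity genes and 2.60% of 77 for cuticle protein genes. Over all 123 summits of planar polarity genes the share was 5.69%, against 6.21% of all peaks. Farther from the ends it was 2.75% of 109, against 4.09%. Polarity and junction genes had 7.46% of 134 summits. Of 12 planar polarity genes 4 had a 3-fold summit nearest to them, against 12.6% of all protein-coding genes, with fz (3.54) and the cadherin gene stan (3.37) highest and dgo and ds without. Of 17 polarity and junction genes 8 had one, led by scrib (3.81) and l(2)gl (3.56) away from their ends, with Nrg and aPKC without, and 21.1% of 19 gene-end summits were 3-fold. Of 19 chitin and apical matrix genes 5 had one, among them the chitin deacetylase gene serp (3.54) and knk (3.37), which acts in chitin organisation, and the chitinase genes Cht2 and Cht5 had none. The 23 gene-end summits of the chitin list had a median of 201 reads over a background of 85.4, and 13.0% were 3-fold. Over all 165 summits of the chitin list the share was 3.64%, and farther from the ends 2.11%. Of 14 pigmentation and tanning genes 3 had one: the tyrosine hydroxylase gene ple (3.91 at its end), the acetyltransferase gene speck (3.69) and the bursicon receptor gene rk (3.21), with Ddc and Pu without. Structural cuticle proteins were lower still, with 3 of 122 genes, led by Cpr76Bc (3.299) and Cpr57A (3.27) and with Acp1 and Acp65Aa among those without. Only Osi1 (3.08) of 23 Osiris genes had one, Osi11 and Osi12 being among the others.

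By the gene-end summits nearest to them, ribosomal protein genes were near the 11.8% of all protein-coding genes, and cell cycle genes above it. Of 20 cell cycle genes 5 had a 3-fold summit nearest to them, with CycA at 3.68 and CycD at 3.16 and none at Cdk1 and Cdk2, and 26.1% of 23 gene-end summits were 3-fold. For 92 cytoplasmic ribosomal protein genes the share at ends was 12.1%. RpL21 (3.51) and RpS28-like (3.38) had the highest end peaks, with RpL10Aa and RpL10Ab without. The peak of RpS28-like was a shared end peak, counted for another gene. For 73 mitochondrial ones it was 10.0%. The highest end peaks were at mRpL3 (3.68) and mRpL21 (3.47), both shared and counted for other genes, with mRpL1 and mRpL10 without. The 3-fold summit nearest to mRpL3 itself had 3.04. Counted by gene, shared peaks included, 17.4% of cytoplasmic and 17.8% of mitochondrial genes had a 3-fold summit at an end, against 10.7% of all protein-coding genes. Among genes with any summit at an end the shares were 19.8%, 20.3% and 16.4%. Farther from the ends none of 33 cytoplasmic and none of 5 mitochondrial summits was 3-fold.

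Over all their summits, Beat and Side adhesion genes (6.61% of 121) and chemosensory receptor genes (6.67% of 195) were near the 6.21% of all peaks. At gene ends Beat and Side genes lay above all protein-coding genes (4 of 13 summits) and receptor genes below (2 of 33), both small counts. Farther away the shares were 3.70% of 108 summits for Beat and Side genes and 6.79% of 162 for receptor genes. Over all protein-coding genes 12.6% had a 3-fold summit nearest to them, and 11.8% of summits at gene ends and 4.09% farther away were 3-fold. Of 32 Dpr and DIP genes 4 had a 3-fold summit nearest to them, with dpr10 (3.54) and DIP-epsilon (3.38) highest and DIP-alpha and DIP-beta without, and 25% of their 12 gene-end summits were 3-fold. All 12 were at the background floor, where the share over all protein-coding genes was 17.8%. Of 22 Beat and Side genes 7 had one, led by beat-IIIc (3.45) and side-IV (3.38), with beat-IIIa and beat-IIIb without, and 30.8% of 13 gene-end summits were 3-fold, or 30% of the 10 at the floor. Leucine-rich repeat receptors had 5 of 18, led by kek5 (3.83) and Tollo (3.27), with 18w and Con without, and 5.56% at their ends. Of 179 odorant, gustatory and ionotropic receptor genes 11 had one, Ir48c (3.88) and Ir48b (3.62) highest and Gr10a and Gr10b without. The Ir48c summit lay 703 bp from that gene, inside ths, a gene of the EGF and FGF list. That of Ir48b lay 1952 bp from the gene, within 500 bp of an end of lncRNA:CR45377. For the receptor list 2 of 33 gene-end summits (6.06%) and 11 of 162 others (6.79%) were 3-fold. Odorant-binding protein genes had 3 of 51, with Obp73a at 3.57 and Obp56i at 3.48 and Obp18a and Obp19a without. At their ends 2 of 19 summits (10.5%) were 3-fold, and farther away 2 of 35 (5.71%), too few to set them apart from all genes. Cytochrome P450 genes had 10 of 83, led by Cyp310a1 (3.92) and Cyp9c1 (3.59), with Cyp12a4 and Cyp12a5 without, and 7.02% at ends. None of 31 trypsin-like gut protease genes had one, Jon25Bi and Jon25Bii included, and their 10 gene-end summits had a median of 116 reads.

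Markers of cell types were checked against the labelled tissue. Of 14 epidermal marker genes 13 had a summit of any height at an end and 4 had a 3-fold one, ple, serp, Fas3 (3.38) and knk. The epidermal regulators grh and ovo had no 3-fold summit, nor did Ddc and cora. Of the 19 gene-end summits of these markers 21.1% were 3-fold, above the 11.8% of all protein-coding genes. None of their 90 summits farther away was 3-fold, against 4.09% over all protein-coding genes. Over all 109 summits of these markers the share was 3.67%, below the 6.21% of all peaks. Their gene-end summits had a median of 198 reads over a background of 85.3, while those of the 14 transcription factor lists had 198 over 63.0. Of the gene-end summits of those 14 lists 42.3% were 3-fold, so that the epidermal markers had as many reads at their ends over a higher background and a lower 3-fold share; the part of the background in that was not tested. Of 14 muscle markers 3 had a 3-fold summit, all away from gene ends (Mef2 3.16, how 3.13 and kirre 3.00), with none at Act57B and Act88F. None of 10 neuronal markers, ChAT and Gad1 among them, and none of 7 germline markers, aub and bam among them, had one. These 2 lists had 21 and 12 nearest summits, too few to set them apart from the 6.21% of all peaks. Glial markers had 2 of 5, gcm (3.90) and repo (3.26) but not moody or nrv2, and hemocyte markers 3 of 8, gcm, srp (3.60) and crq (3.21) but not He or Hml. Fat body markers had 2 of 8, apolpp (3.52) and Lsp1gamma (3.24) but not Fbp1 or Fbp2. Tracheal markers had 4 of 6, rib (3.80), trh (3.49), kni (3.39) and knrl (3.28) but not Gasp or btl, and oenocyte markers 1 of 6, salm (3.35) but not Cyp4g1 or FASN2. Over all protein-coding genes 12.6% had one. By summits, 2.5% of 120 were 3-fold for muscle, 9.52% of 84 for trachea and 13.9% of 36 for oenocytes, against 6.21% of all peaks. For glia it was 15.4% of 13, for hemocytes 10.7% of 28 and for fat body 16.7% of 12. Several of these marker genes encode transcription factors that are also in the family lists, and whether such cells were present was not tested.

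**Figure D5:**
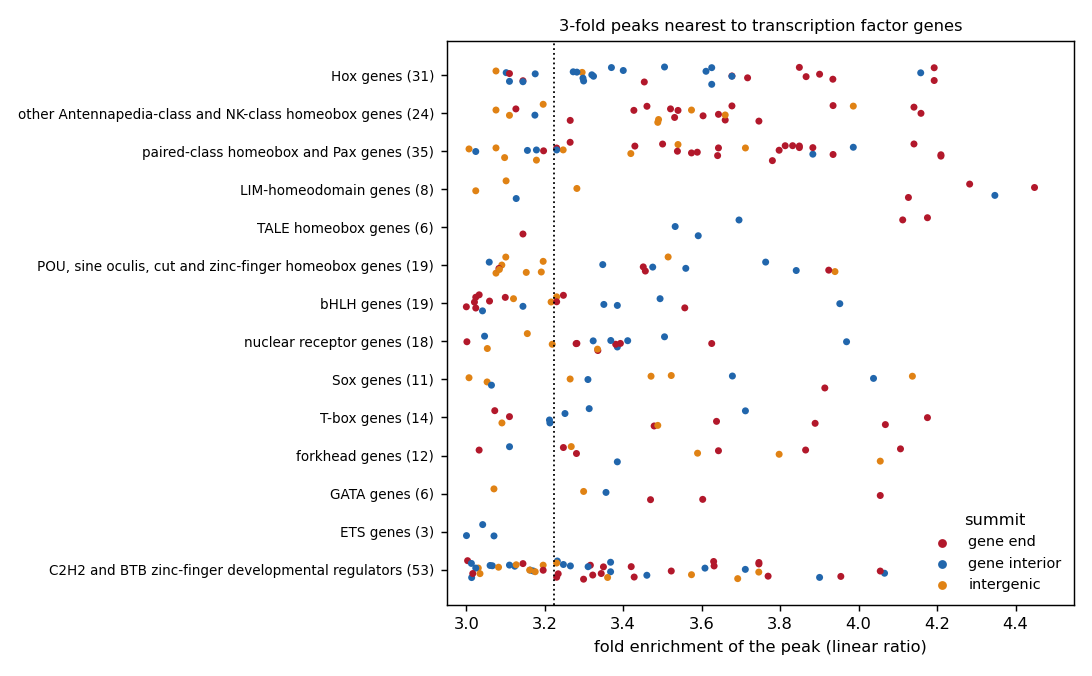
Fold enrichment of each 3-fold peak whose nearest protein-coding gene end belongs to a transcription factor list, with the number of peaks in brackets and colours for gene-end (red), interior (blue) and intergenic (orange) summits; the dotted line is the median of all 3-fold peaks, 3.22. Most lists reach past 4.0, with LIM-homeodomain genes highest at 4.45. The POU, bHLH and nuclear receptor lists stay below 4.0, and ETS genes at 3.07 or below.

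Most genes with a 3-fold peak had just 1: of the 1756 genes 1474 had 1, 202 had 2, 57 had 3, 15 had 4, 6 had 5, and Antp and Abd-B had 7 and 10. The 6 genes with 5 were chn, ftz-f1, salm, rst, CG43658 and Ste:CG33236. The summits of chn, a zinc-finger gene, reached 4.09 and were all at the background floor. Those of ftz-f1, a nuclear receptor gene of the ecdysone response, ran from 3.32 to 3.63, and those of salm, a zinc-finger gene of wing and oenocyte development, from 3.03 to 3.35. Of the 5 given to rst, an adhesion gene, 4 lay in the interior of its neighbour and relative kirre, and the 5 given to Ste:CG33236 lay 12261 bp or more from it in a stretch of X near the repeated Stellate genes, where reads of near-identical copies may not be told apart. The 15 genes with 4 included the homeobox genes ct, lbe and oc, the zinc-finger genes chinmo, Cph and mamo (up to 4.06), Sox21b, the ecdysone-induced gene Eip93F, fz, the kinase gene nmo and the growth factor gene Pvf3. The others were MYPT-75D, CG3626, CG42238 and CG32655, whose 4 summits lay inside Ten-a.

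The arms differed in their share of 3-fold peaks. On chromosome 4 16.3% of 270 peaks were 3-fold and on X 8.92% of 5502, against 5.60% on the large autosome arms together (2L 6.21%, 3L 5.63%, 3R 5.49%, 2R 5.09%). The background differed in the same order: 74.8% of the peaks on chromosome 4 and 40.2% of those on X were at the floor, against 23.2% on the large autosome arms. Among peaks at the floor the 3-fold shares were 16.3% on 4, 12.1% on X and 9.19% on the large autosome arms. On 4 this equalled the share over all its peaks, so its peaks above the floor had about the same share. On X and the large autosome arms the share was lower above the floor than at it. The higher share of chromosome 4 was thus present both at the floor and above it, where backgrounds varied and were not matched. High pileups were not more frequent there, since 174 reads or more were present at 23.7% of the peaks on 4 and 26.5% on X, against 31.3% on the large autosome arms. The labels give no sex, so the number of X copies in the pool is unknown. The 3-fold peaks of chromosome 4 included the ends of Gyf (3.92), toy and sv (3.85 each), and mav and mir-954 (3.73), a site inside ey (3.88), and others near the Hedgehog effector gene ci (3.32) and inside the Wnt effector gene pan (3.36).

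Non-coding genes also carried 3-fold summits at their ends. Within 500 bp of an end, a 3-fold summit was found for 32 of 290 tRNA genes (11.03%, close to the 10.7% of protein-coding genes). The other types were lower, with 95 of 1959 long non-coding RNA genes (4.85%) and 37 of 503 antisense RNA genes (7.36%). The numbers were 6 of 260 for miRNA genes (2.31%), 6 of 269 for snoRNA genes (2.23%) and 2 of 32 for snRNA genes (6.25%). Among tRNA genes tRNA:Ser-AGA-2-4 led with 3.61, at a summit also 181 bp from an end of the coding gene CG31698. A run of tRNA summits lay between 2R:19725208 and 2R:19728393, at tRNA:Glu-CTC-2-1 (3.34), tRNA:Glu-TTC-1-5 (3.33) and tRNA:iMet-CAT-1-2 (3.01). tRNA genes have near-identical copies, so their values are uncertain. The 6 miRNA genes were mir-954 (3.73), mir-4942 (3.40), mir-3645 (3.28), mir-193 (3.26), mir-4985 (3.09) and mir-303 (3.06), and the 3 that were nearest to their summits all had a protein-coding end within 500 bp as well.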

How the data were processed

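The data are ATAC-seq of 3 samples of 1 group, present as 1 merged peak list (columns of per-sample values not used: 0). Per the submitters' processing notes, the authors used BWA, SAMtools, Picard and MACS2 with dm6. Not given in the sources used here: versions, settings and how the replicates were merged. The deposited values of a peak are its fold enrichment, which is the ratio of summit pileup to local background, and the caller's −log10 p and −log10 q at the summit. A deposited display score was left aside.

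Depth per replicate is unknown. Pileup n and background b were solved from fold enrichment as (n + 1)/(b + 1) and the Poisson tail behind −log10 p; a whole n was found for 34718 of 34718 peaks (tolerance 0.002 on −log10 p, largest residual 0.00014, smallest step 0.0124), after the recovery had been tested on simulated data. Poisson intervals cover counting error only. Peaks are 1-based on dm6. Genes are spans of a RefSeq table of the same assembly, Release 6 plus ISO1 MT, with 17684 genes on 6 arms, 13922 of them protein-coding; 29 3-fold summits were equally far from the ends of several coding genes and took the first by symbol. The table matched all list members, 7 under current symbols.

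The members and the 43 gene lists (34 families, 9 marker lists, 10 of them by symbol pattern) were chosen with earlier results of these data known. The cytochrome P450 pattern was corrected after its values were seen, because it also took cyclophilins. Genes named are the 10 gene-end, 10 interior and 6 intergenic peaks of highest fold enrichment, every gene with 4 or more 3-fold summits, 3 peaks on each side of the threshold, and in each list the 2 highest members and the first 2 without a 3-fold summit. Other genes named were chosen after their values were seen. Values of 1 list member are not reported here. No genome sequence was used here, so no sequence is shown and the planned promoter motif search was not run. Python 3.11.15, pandas 2.3.3, numpy 2.4.6, scipy 1.17.1 and matplotlib 3.10.9 were used.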

Additional observations from a re-analysis of the deposited data

How the results depend on the processing

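The number of peaks follows the threshold, with 810 at 3.3 or more and 3667 at 2.8 or more. The share of 3-fold summits at gene ends was 46.0% with a window of 250 bp, 64.9% with 1000 bp and 52.2% with protein-coding genes only. Interiors held 38.5% with 250 bp and 25.2% with 1000 bp, and sequence between genes 15.6%, 9.88% and, with protein-coding genes only, 16.4%. With only peaks at the background floor, an alternative chosen after seeing the data, sequence between genes held 14.04%, and the ratio to all arms was 1.62 for chromosome 4 (2.62 with all backgrounds) and 1.21 for X (1.44). For 3L it was 0.811 at 3.3 or more (0.906 at 3.0). The 14 transcription factor lists had 3.57 times the 3-fold share of all protein-coding genes at gene ends, 6.65 times at 3.3 or more and 2.60 times at 2.8 or more. For all nearest summits the ratio was 1.83, 2.76 and 1.47. At gene ends 13 of the 14 lists lay above all protein-coding genes, and 10 to 13 did under the alternatives. Of 295 alternatives for single lists at gene ends 272 stayed on the same side of the share over all genes, and 226 of 258 for nearest summits. No direction of a summary value reversed, apart from that of 2L, whose share of 6.21% was level with the 6.21% over all arms. Lists with fewer than 10 gene-end summits can move by large steps, and the pileup limits the ranking of peaks near the threshold. Leaving out a replicate could not be done, and the promoter motif search was not run. No paired analysis was possible because the 3 replicates form 1 group and are merged in 1 peak list.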
